A study of Mus musculus with 32 samples.

Results

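Loss of *Kdm5c* in the adult mouse hippocampus was examined as 1 factor of a factorial design, with 8 libraries that lack *Kdm5c* set against 8 libraries that carry it. The 16 hippocampal libraries are those of the 32 in the series that meet this rule. The other 16 come from the amygdala of the same mice and are used for comparison. The side without *Kdm5c* joins 4 mice labelled 5c-KO, which keep both copies of *Kmt2a*, and 4 labelled DM (double mutant), which lack *Kdm5c* and carry 1 copy of *Kmt2a*. The side with *Kdm5c* joins 4 WT mice and 4 labelled 2a-HET, which carry 1 copy of *Kmt2a*. *Kmt2a* state therefore enters every fit as a covariate. All were adult males and F1 hybrids of a 129S1/SvImJ father carrying *Kmt2a*+/- and a C57BL/6J mother carrying *Kdm5c*+/- (strain label 129xB6). Both alleles were constitutive, so every cell of the body carried them, and the measured material was RNA of microdissected bulk tissue, primed with oligo-dT. In such material fewer cells of a type and less RNA per cell cannot be told apart.

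KDM5C is an X-linked histone demethylase that removes methyl groups from lysine 4 of histone H3, a mark found at active promoters and enhancers. KMT2A is one of the enzymes that place this mark. Loss of KDM5C in males is known as a cause of intellectual disability, and the protein is also known for keeping genes of the germ line silent in somatic tissue.

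Loss of *Kdm5c* was accompanied by more genes at a higher than at a lower level. Of 19844 genes tested, 538 passed an adjusted *p* under 0.1 (2.71%). Of these, 425 were higher without *Kdm5c* (2.14% of those tested) and 113 were lower (0.569%). The count of lower genes was 231 without 2a-HET replicate 3, 71 without 5c-KO replicate 3, 72 without DM replicate 4 and 74 without 2a-HET replicate 2. The median of the 425 was 1.83-fold higher, and the median of the 113 was 1.36-fold lower. A log2 change over 1 in size was reached by 185 of the higher genes and 14 of the lower ones. Genes that rose often had low counts: 44.0% of the 425 had a mean under 50 normalised counts with *Kdm5c*, against 34.1% of all genes tested and 12.4% of the 113. Normalised counts are counts divided by the size factor of each library. They are not corrected for gene length, so they compare libraries and not the expression of different genes. All 8 libraries without *Kdm5c* lay above all 8 with it in 62 genes (0.312% of those tested), and below them in 4 (0.0202%). All 66 were among the called genes. The quasi-likelihood test of edgeR called 241 genes higher (0.807% of 29869) and 37 lower (0.124%), and 270 of its 278 genes (0.931%) were among the 538. Scaled by the ERCC spike-ins, which moved the median log2 change of all genes from -0.01 to -0.14, 22 genes were called, all of them higher. The ERCC size factors were spread widely within each side, with 0.421 and 1.93 in WT replicates 4 and 1, and 0.444 and 2.21 in 5c-KO replicate 4 and DM replicate 1. The default ones spanned 0.815 to 1.18. The part of this spread in the loss of calls was not tested.

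The libraries held 19322259 to 27798976 counts and 21408 to 22965 detected genes, and 3 counts, taken as the floor, were worth 0.108 to 0.155 CPM (counts per library scaled to the same total), covering counting error only. On the first principal component 1 library stood apart. 5c-KO replicate 1 lay at 22.5, where all libraries spanned -10.2 to 22.5. It held the highest sum of choroid plexus, ependymal, striatal, hypothalamic and meningeal markers. For the hypothalamic markers 5c-KO replicate 4 was close to it, at 35.2 against 36.0 CPM, and the highest library with *Kdm5c* had 7.39 CPM. 5c-KO replicate 4 also held the highest sum of pituitary markers (46.1 CPM). The 12 choroid plexus markers summed to 4825 CPM in 5c-KO replicate 1. They summed to 42.5 to 1126 CPM (median 94.4) with *Kdm5c* and to 50.7 to 4825 CPM (median 885) without it, so the markers of the tissue that secretes cerebrospinal fluid tended to be higher without *Kdm5c*, in ranges that overlap. Sums over 500 CPM were found in 6 libraries, 5 without *Kdm5c* (5c-KO replicates 1, 3 and 4, DM replicates 2 and 4) and 1 with it (WT replicate 3). Calls were therefore also made without these 6 libraries, which left 3 against 7, and with the log2 sum of these markers as a covariate, both chosen after the data were seen. The first left 112 genes higher and 13 lower, of which 108 were among the 538, and the second 220 and 40, of which 240 were. Hippocampal markers lay in overlapping ranges. The 8 CA1 markers summed to 694 to 1023 CPM with *Kdm5c* and 698 to 1114 without it, and the 8 CA3 markers to 1009 to 1719 and 936 to 1627.

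*Kdm5c* RNA itself was lower but far from absent. The count of the gene (chrX:152233020-152274535 on mm10) had its lowest, median and highest value at 1145, 1337 and 1430 without *Kdm5c* and at 1426, 1605 and 1888 with it. The groups overlapped only in their extreme libraries. The log2 fold change was -0.30 ± 0.06 (SE, adjusted *p* = 0.000304). Without the 6 libraries rich in choroid plexus markers it was -0.29 and not called (adjusted *p* = 0.226), and with the covariate it was -0.25 and called (adjusted *p* = 0.0141). The gene was also not called with ERCC size factors. The allele removes targeted exons, and a count over the whole gene includes the exons that remain, so these values do not check the loss of the protein. Of its transcripts, *Kdm5c*-203 held the highest count on both sides, at 789 ± 68.7 with and 692 ± 102 without *Kdm5c* (SD, n = 8). *Kdm5c*-201 was at 253 ± 86.8 and 121 ± 106. The other KDM5 demethylases, *Kdm5a*, *Kdm5b* and *Kdm5d*, did not pass the test. *Kmt2a* had 4239 ± 1053 normalised counts without and 4665 ± 1248 with *Kdm5c*, a log2 difference of -0.14 ± 0.17 (SE, adjusted *p* = 0.938). Among 6 H3K4 methyltransferases *Setd1b* was the 1 call (0.569% of all tested genes were called lower), at -0.35 ± 0.09 (SE, adjusted *p* = 0.00559). It was also called by edgeR, but not in the 2 fits that deal with the choroid plexus markers (-0.36 and -0.27, adjusted *p* = 0.263 and 0.123).

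Genes near *Kdm5c* were read separately, since a targeted allele carries its own flanking sequence. Of 37 tested genes that start within 2 Mb, only *Kdm5c* was called lower, and *Tspyl2* was the 1 gene called higher, a share near the 2.14% over all tested genes. *Tspyl2*, a gene of the nucleosome assembly protein family on the opposite strand (chrX:152336852-152342425), ranged from 1614 to 1969 with *Kdm5c* and from 2025 to 2346 without it, so the groups did not overlap. Its log2 fold change was 0.25 ± 0.05 (SE, adjusted *p* = 0.000156), and it was 0.22 and not called without the 6 libraries rich in choroid plexus markers. The median over the 37 was -0.01, the same as over all genes tested.

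The 15 named genes with the smallest adjusted *p* among those higher without *Kdm5c* included *Dnah1*, *Rps4l*, *Tex14*, *Cacng6*, *Pnck*, *Pgam2*, *Scarf2*, *Gaa*, *Ido2*, *Crybb1*, *Tnxb*, *Wdr95*, *Pyroxd2* and *Ddo*. In 14 of them the groups did not overlap, all 15 were also called by edgeR, and all 15 were called both without the 6 libraries rich in choroid plexus markers and with the marker level as a covariate.

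Of these, *Dnah1* and *Tex14* are best known from cilia and germ cells. *Dnah1* (chr14:31260375-31323896), a heavy chain of axonemal dynein, had a lowest, median and highest count of 151, 170 and 226 with *Kdm5c* and of 715, 821 and 930 without it. The 8 libraries of each side formed narrow and distant clusters, with a log2 fold change of 2.21 ± 0.09 (SE, adjusted *p* = 5.23e-132). Both of its annotated transcripts rose. *Dnah1*-201, which encodes the protein, went from 74.1 ± 14.6 to 302 ± 34.3, and the noncoding *Dnah1*-202 from 103 ± 19.8 to 523 ± 53.9 (SD, n = 8). *Tex14* (chr11:87405065-87555823), which is needed for the bridges between male germ cells, had values of 3.68, 7.21 and 12.4 with *Kdm5c* and of 77.5, 88.6 and 110 without it. It was close to the floor with *Kdm5c* and readily counted in every library without it, 11.8-fold higher (log2 fold change 3.57 ± 0.23, SE, adjusted *p* = 4.61e-50). Their promoters are shown because they are 2 of the 3 genes with the smallest adjusted *p*, and none is shown for *Rps4l*. Each is the stretch of 250 bases before the RefSeq start on GRCm38.p6, in the direction of the gene, and capitals mark GCGGGAA or its reverse complement TTCCCGC, the letters bound by E2F6 among others.
*Dnah1* promoter (chr14:31323897-31324146, minus strand): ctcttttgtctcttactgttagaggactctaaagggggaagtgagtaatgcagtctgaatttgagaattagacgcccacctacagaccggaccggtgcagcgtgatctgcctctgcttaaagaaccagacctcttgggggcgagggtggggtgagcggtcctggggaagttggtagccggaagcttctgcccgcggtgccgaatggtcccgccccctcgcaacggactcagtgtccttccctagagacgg
*Tex14* promoter (chr11:87404815-87405064, plus strand): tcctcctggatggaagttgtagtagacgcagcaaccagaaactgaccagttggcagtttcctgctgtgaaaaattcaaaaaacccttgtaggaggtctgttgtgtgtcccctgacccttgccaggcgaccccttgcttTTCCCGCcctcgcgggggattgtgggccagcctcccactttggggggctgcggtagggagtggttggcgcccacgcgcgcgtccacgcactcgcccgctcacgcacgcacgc
*Tex14* held 1 match, 112 bases before its start, and *Dnah1* held none.

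Genes of channels and signalling followed. *Cacng6* (chr7:3424195-3435667), a gamma subunit of voltage-dependent calcium channels, had 22.1, 37.8 and 74.8 as its lowest, median and highest count with *Kdm5c* and 137, 466 and 639 without it. The groups were apart, and the libraries without *Kdm5c* were spread widely (456 ± 157, SD, n = 8). The log2 fold change was 3.50 ± 0.23 (SE, adjusted *p* = 9.82e-47). The other 6 tested members of the gamma subunit and TARP list did not pass the test, so the list had 1 call among 7, where 2.14% of all tested genes were called higher, and a median of -0.09. *Pnck* (chrX:73655994-73660117), a calcium/calmodulin-dependent kinase, went from 1030, 1244 and 1489 to 2473, 3251 and 3719, again with no overlap. Its log2 fold change was 1.30 ± 0.09 (SE, adjusted *p* = 5.79e-46). *Scarf2*, a scavenger receptor gene, had a log2 fold change of 1.36 ± 0.12 (SE), from 58.9 to 119 counts with and 149 to 305 without *Kdm5c*.

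**Figure D1:**
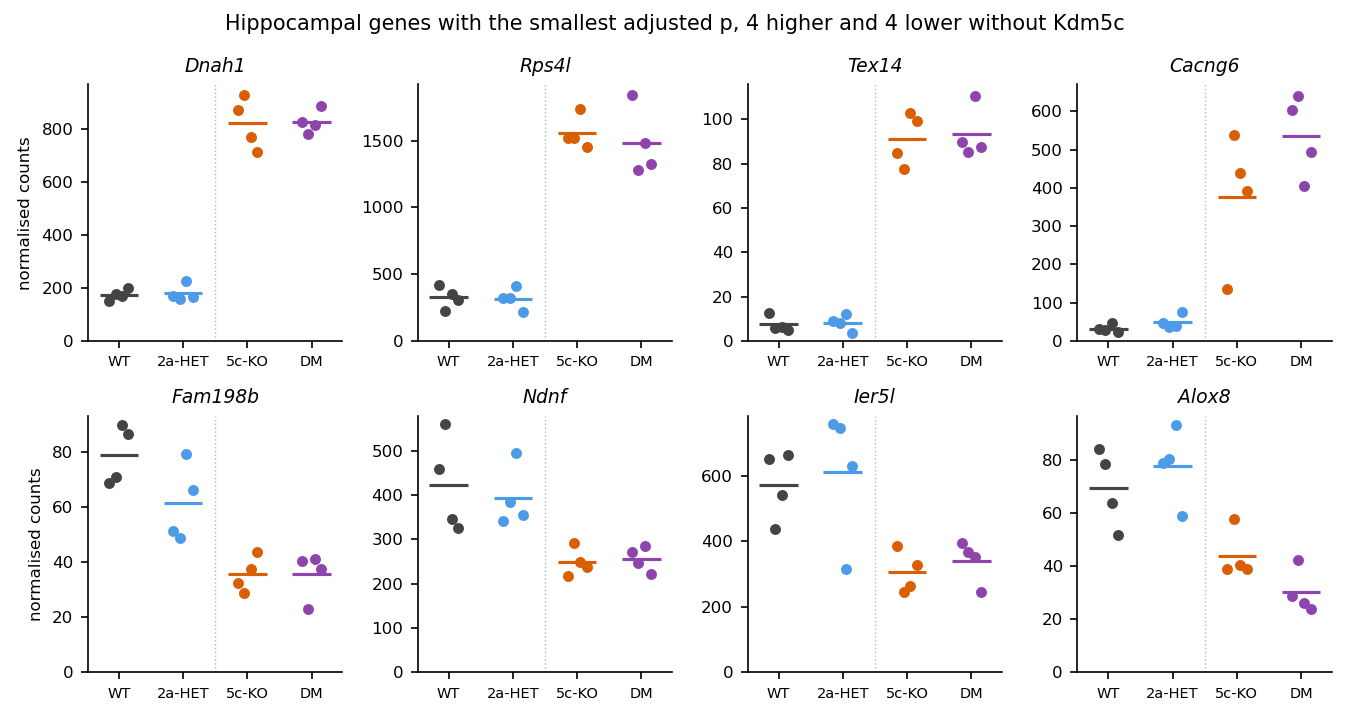
Normalised counts (linear axes from 0) of the 4 named genes with the smallest adjusted p among those higher (upper row) and those lower (lower row) without Kdm5c, by genotype, where 1 point is 1 mouse and the bar is the mean of 4. In the upper row every 5c-KO and DM mouse lies above every WT and 2a-HET mouse, and in the lower row Ier5l and Alox8 overlap.

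*Gaa* (chr11:119267887-119285454), the lysosomal enzyme that digests glycogen, was the most abundant of the 15 in counts and rose by a small but even step. Its counts were 8567 to 11480 (median 9280) with *Kdm5c* and 13674 to 17717 (median 15616) without it, with a log2 fold change of 0.72 ± 0.07 (SE, adjusted *p* = 2.1e-22). *Ido2*, an enzyme of tryptophan breakdown, went from a median of 27.3 (11.5 to 43.9) to 149 (70.6 to 212), 2.34 ± 0.24 (SE) on the log2 scale. Most of its counts were assigned to the noncoding transcript *Ido2*-204, at 16.8 ± 13.6 with and 118 ± 41.6 without *Kdm5c*, whereas the protein-coding *Ido2*-201 was at 9.94 ± 9.23 and 2.67 ± 6.11 (SD, n = 8). *Ddo*, which oxidises D-aspartate, rose by 0.93 ± 0.11 and *Pyroxd2*, an oxidoreductase gene, by 1.28 ± 0.15. *Pgam2*, the muscle form of phosphoglycerate mutase, rose by 1.73 ± 0.15, from 131 to 235 counts with and 421 to 772 without *Kdm5c*, without overlap. *Crybb1*, a crystallin gene, rose by 1.56 ± 0.17 and *Wdr95* by 2.88 ± 0.34 (SE throughout). *Tnxb*, the matrix protein tenascin X, was the 1 gene of the 15 whose groups overlapped, at 423 to 877 with and 742 to 2914 without *Kdm5c* (1.74 ± 0.20, SE). *Rps4l*, a transcript related to ribosomal protein S4, went from 215 to 422 (median 319) to 1280 to 1838 (median 1503), a log2 fold change of 2.25 ± 0.13 (SE). It is annotated as a single noncoding transcript, and reads of such copies can be split between them in counting. *Rps4l* also lies within *Tmtc1* on the other strand, and whether counting used strand is not given in the sources used here.

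Among the genes that fell, changes were smaller. The 15 with the smallest adjusted *p* included *Fam198b*, *Ndnf*, *Ier5l*, *Alox8*, *Ddit4l*, *Neto2*, *Galnt14*, *Kdm5c*, *Mcm6*, *Ogn*, *Tspan2*, *St3gal1*, *Trabd2b* and *Igfbp5*. The groups did not overlap in 2 of them, all 15 were called by edgeR, and 4 remained called without the 6 libraries rich in choroid plexus markers, while 15 remained with the marker level as a covariate. In the fit of 3 against 7 the log2 changes of genes that lost the call included -0.85 for *Fam198b*, -0.42 for *Neto2* and -0.64 for *Tspan2*, against -0.97, -0.39 and -0.61 in all 16 libraries. *Fam198b* was at 48.7, 69.8 and 89.8 (lowest, median, highest) with *Kdm5c* and at 23.1, 37.6 and 43.6 without it, with a log2 fold change of -0.97 ± 0.17 (SE, adjusted *p* = 5.38e-06). *Ndnf*, a secreted neurotrophic factor, was at 326, 369 and 561 and at 218, 248 and 291, with -0.69 ± 0.12 (adjusted *p* = 6.12e-06). These were the 2 genes without overlap. *Ier5l* fell by 0.88 ± 0.16 on the log2 scale, and *Alox8*, a lipoxygenase gene, had 51.8 to 93.2 counts with and 24.0 to 57.7 without *Kdm5c*. *Ddit4l*, an inhibitor of mTOR signalling, fell by 1.21 ± 0.24, and *Neto2*, an auxiliary subunit of kainate receptors, by 0.39 ± 0.08. *Mcm6*, a subunit of the replicative helicase, fell by 0.71 ± 0.15 (SE throughout). *Tspan2*, known from oligodendrocytes, had 1262 to 2380 counts with *Kdm5c* and 1009 to 1520 without it. The 10 oligodendrocyte markers had a median of -0.05, and their sums ranged from 3177 to 6828 CPM with and from 3334 to 6305 CPM without *Kdm5c*. *Ogn*, a matrix proteoglycan, fell by 1.49 ± 0.34 (SE) in all libraries, with -2.56 in the fit of 3 against 7 and -2.19 with the covariate. *Lum*, another proteoglycan and a meningeal marker, fell by 0.77 ± 0.25 (adjusted *p* = 0.0873), and it was not called by edgeR or in these 2 fits (-0.95 and -0.88, adjusted *p* = 0.48 and 0.118). The 9 meningeal markers summed to 57.9 to 116 CPM with and 45.7 to 418 CPM without *Kdm5c*, and their part in these results was not tested.

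Genes of germ cells were then counted in 3 lists (meiosis, the piRNA pathway that guards germ cells from transposons, and other germ cell genes). Of 114 genes named, 57 were tested, 15 were higher (2.14% of all genes tested were) and 0 were lower (0.569%), with a median log2 change of 0.27 against -0.01 over all genes tested. Among the 57 genes not tested, 18 had no count in any hippocampal library. All lists were chosen with earlier results of these data known, so their shares are not independent evidence. Testing also required a mean count over all libraries, which a gene can reach by counts of the side where it is high. The largest change was seen for *D1Pas1*, a testis RNA helicase gene, with 1 count in all over the 8 libraries with *Kdm5c* and 116 over the 8 without it (8.52 to 26.1 normalised counts, median 13.0). The ratio was 106, with a 95% interval from 18.6 to 4210 that covers counting error only. *Cyct*, the cytochrome c of testis, had 4 and 103 counts, a ratio of 23.5 (8.89 to 87.7), and neither gene overlapped. *Naa11* (log2 fold change 3.22 ± 0.61) and *Zar1* (2.27 ± 0.73, SE) were the other called members beside *Tex14*. *D1Pas1*, *Cyct* and *Naa11* are close copies of genes expressed in every tissue, so that shared reads are a source of uncertainty.

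In the piRNA list 5 of 17 tested genes were higher, beside 2.14% of all tested genes: *Rnf17*, *Stk31*, *Ddx4*, *Fkbp6* and *Pnldc1*. *Rnf17*, a tudor domain protein of germ cells, had 7.46 to 15.3 counts (median 9.91) with *Kdm5c* and 24.6 to 49.1 (median 33.3) without it, and the groups did not overlap (1.72 ± 0.27, SE, adjusted *p* = 5.5e-08). *Ddx4*, the helicase VASA, had 25.8 to 66.1 and 49.0 to 108, which overlap (0.89 ± 0.22, SE, adjusted *p* = 0.00601). Of 27 tested meiosis genes 5 were higher, namely *Syce1*, *Syce2* and *Sycp3* of the synaptonemal complex, the cohesin subunit *Rec8*, and *4930447C04Rik*, also named *Six6os1*, with log2 changes from 0.65 to 2.20 and adjusted *p* from 0.0184 to 0.0709. None of these 5 was called by edgeR, which called 9 of the 96 germ cell genes it tested higher (0.807% over all genes), 8 of them among the 15 and the other the meiosis gene *Msh4*. Without the 6 libraries rich in choroid plexus markers 5 of the 57 germ cell genes were called, and with the marker level as a covariate 9 were. Genes that lost the call in the first of these fits had log2 changes there from 0.44 (*4930447C04Rik*) to 3.22 (*Fkbp6*), against 0.80 and 2.94 in all 16 libraries, with *Naa11* at 2.54, *Stk31* at 2.82 and *Syce1* at 2.62, against 3.22, 2.57 and 2.20. In both fits *Tex14*, *D1Pas1*, *Cyct*, *Rnf17* and *Ddx4* were called, with log2 changes from 1.04 to 5.71.

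The promoters of the called germ cell genes were searched for CACGTG, the E-box, on both strands (it reads the same on each). Among 13 of the 15 with a RefSeq promoter, 6 genes (46.2%) held it in the 300 bases around the start, against 1442 of 13267 tested genes (10.9%) and 36 of 312 among all genes that rose (11.5%). GCGGGAA or TTCCCGC was held by 5 of the 13 (38.5%), against 8.8% of tested genes and 6.41% of all those that rose. In the 150 bases nearest the start, 5 of the 13 held CACGTG and 2 held GCGGGAA or TTCCCGC. In the same window 921 and 652 of the 13267 tested genes did. Of the 6 genes with CACGTG in 300 bases, *Ddx4* alone was called in the fit of 3 against 7, *Ddx4* and *Stk31* were with the covariate, and the 3 meiosis genes among them were not called by edgeR, so these shares rest on calls that were mostly lost there. TCACGTGA was found in 0 of the 13 and in 1.84% of tested genes. A match is a description of letters only. The E-boxes are shown with 10 bases on either side and in capitals, in the direction of the gene (RefSeq, GRCm38.p6).
*4930447C04Rik* (chr12:72917921-72917946): tgtggcctacCACGTGgtgcgcgggg
*Ddx4* (chr13:112652324-112652349): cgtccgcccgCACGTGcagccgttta
*Fkbp6* (chr5:135350130-135350155): cgcctgccatCACGTGtgcagcgcgt
*Fkbp6* (chr5:135350066-135350091): gtctatcgatCACGTGccgtttctct
*Stk31* (chr6:49395474-49395499): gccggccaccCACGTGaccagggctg
*Syce2* (chr8:84872160-84872185): tttcattcagCACGTGctcggggcgg
*Sycp3* (chr10:88459513-88459538): cgttggctccCACGTGagaacgggca
*Sycp3* (chr10:88459534-88459559): gggcatggagCACGTGctaggaggcg
*Fkbp6* and *Sycp3* held it at 2 places. CpG density had a median of 6.33 per 100 bases in promoters of these germ cell genes, 2.67 in all genes that rose and 6 both in genes that fell and in all genes tested.

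Motile cilia genes were the single list with the most calls. Of 40 tested, 12 were higher and 0 lower (2.14% and 0.569% of all genes tested), with a median of 0.88, and 36 had a positive log2 change. *Dnah1* was called with a change of 2.21, and the other 11 (*Cfap44*, *Dnah11*, *Cfap43*, *Dnah6*, *Tekt1*, *Dnaic1*, *Ccdc114*, *Ak7*, *Rsph4a*, *Dnali1* and *Cfap52*) with 0.73 to 1.46. They encode dynein arms, radial spokes and other parts of the axoneme. The list summed to 120 to 203 CPM (median 137) with *Kdm5c* and to 164 to 392 CPM (median 220) without it, and the highest sum was in 5c-KO replicate 1. Ependymal and choroid plexus cells are known to carry cilia, and their part in this result was not tested. *Foxj1*, *Ccdc153*, *Tmem212* and *Pifo* are members of both the cilia and the ependymal list, so those lists are not independent. The cilia and choroid plexus sums did not always go together by library. 2a-HET replicate 3 had 203 CPM of cilia genes and 69.3 CPM of choroid plexus markers, and WT replicate 3 had 149 and 1126 CPM. The 8 ependymal markers summed to 8.13 to 27.9 CPM with and 16.2 to 75.9 CPM without *Kdm5c*, with all 8 positive and *Mia* called (2.47 ± 0.37, SE), without overlap. All 12 choroid plexus markers were positive, 8 were called higher, against the same 2.14%, and their median was 2.72. *Kl*, *Folr1*, *Clic6*, *Kcnj13*, *Slc4a5*, *Aqp1*, *Mfrp* and *Trpv4* were the 8, and in each of them the groups overlapped. edgeR called 7 of the cilia genes and 5 of the choroid plexus markers. Without 5c-KO replicate 1, 8 cilia genes and 2 choroid plexus markers were called. Without the 6 libraries rich in these markers, and likewise with their level as a covariate, 1 cilia gene (*Dnah1*) and 0 choroid plexus markers were called. The cilia median was then 0.21 and 0.46, and the choroid plexus median -0.77 and 0.21. Both fits were built on the sum of the 12 choroid plexus markers. The loss of their calls and the move of their median are therefore tied to that choice and are no test of these markers. *Dnah1* held a log2 change of 2.26 and 2.23 in these fits.

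**Figure D2:**
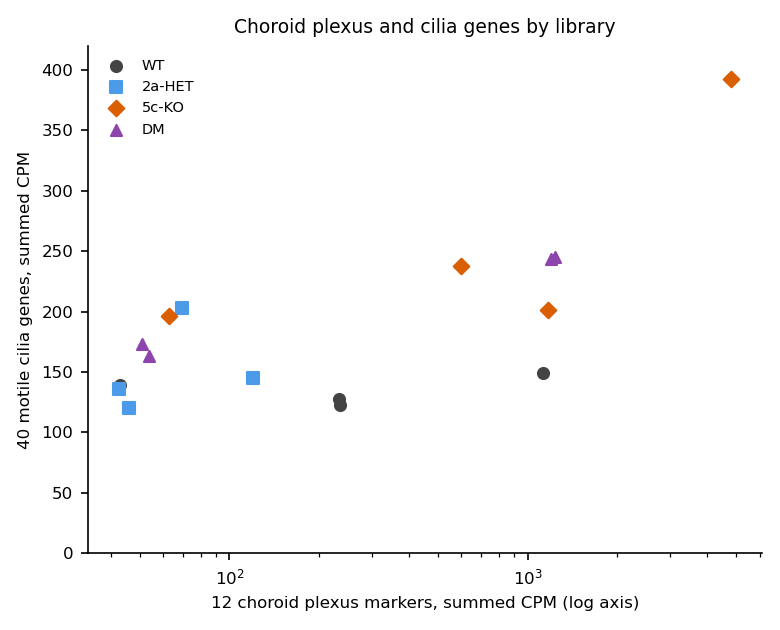
Summed CPM of 40 motile cilia genes (linear axis from 0) against those of 12 choroid plexus markers (log axis) in 16 hippocampal libraries, 1 point a mouse. 5c-KO replicate 1 is the point at 4825 and 392 CPM, and WT replicate 3 has 1126 CPM of choroid plexus markers with 149 CPM of cilia genes.

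Neuronal lists showed few calls. The 22 activity-induced genes had 0 calls and a median of -0.11 (0.20 without the 6 libraries rich in choroid plexus markers), and the 18 ionotropic glutamate receptors 0 calls and a median of -0.01. The log2 change was positive in 2 of the 22 (16 without these 6 libraries) and in 9 of the 18, beside 9366 of all 19844 genes tested. Among 15 tested GABA-A receptor subunits *Gabrd*, the delta subunit of tonic inhibition, was lower, at 417 to 1169 counts with and 288 to 674 without *Kdm5c* (-0.68 ± 0.18, SE, adjusted *p* = 0.0133), and *Gabre* was higher at 2.20 ± 0.73 (SE, adjusted *p* = 0.099). *Gabrd* is known from dentate granule cells, whose 10 markers had a median of -0.29 and 1 call, *Trpc6* (-0.53 ± 0.17, SE). Of the 10 markers, 1 had a positive log2 change, and 4 did without the 6 libraries rich in choroid plexus markers. These markers summed to 325 to 862 CPM with and 221 to 574 CPM without *Kdm5c*, lowest in 5c-KO replicate 1, and their part in the *Gabrd* result was not tested. *Gabrd* was not called without the 6 libraries rich in choroid plexus markers (-0.39) or with the covariate (-0.61). *Spink8* was the 1 called gene of 8 CA1 markers, whose median was 0.01. It had 111 to 272 counts (median 165) with *Kdm5c* and 268 to 503 (median 368) without it (1.18 ± 0.16, SE, adjusted *p* = 1.62e-10), and it held its call in both of these fits. *Reln*, which marks a class of interneurons, fell by 0.32 ± 0.10 and was the 1 call among 12 interneuron markers. *Gfap*, the filament protein of astrocytes, rose by 0.42 ± 0.11 (SE, adjusted *p* = 0.0137), from 5096 to 11632 counts to 9253 to 13000, and was the 1 call among 10 astrocyte markers, all of which were positive with a median of 0.11. The microglial, endothelial, thalamic, striatal, hypothalamic, CA3 and oligodendrocyte precursor lists had 0 calls. *Dnmt1*, the maintenance DNA methyltransferase, was the 1 call among 24 silencers of germ line genes, lower by 0.18 ± 0.06 (SE, adjusted *p* = 0.0826). Of 7 blood genes tested, 1 was lower, *Hba-a2* (-0.53 ± 0.18, SE, adjusted *p* = 0.0971), whose reads can be shared with its twin *Hba-a1*. Each single call in a list here stands beside 2.14% of all tested genes called higher and 0.569% called lower. *Gabre*, *Trpc6*, *Reln*, *Dnmt1* and *Hba-a2* were not called by edgeR, nor in either fit that deals with the choroid plexus markers, and *Gfap* was called in the second of those fits (0.45) and not in the first (0.49). The log2 changes in the 2 fits were -0.27 and -0.19 for *Dnmt1*, -0.58 and -0.59 for *Hba-a2* and -0.30 and -0.24 for *Reln*. They were 0.76 and 1.38 for *Gabre* and -0.29 and -0.40 for *Trpc6*.

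A list of 10 hormone and receptor genes that the study chose on libraries of this series had 3 of 7 tested members higher (2.14% of all genes were), *Mc3r*, *Gabre* and *Lhb*, at adjusted *p* of 0.0727, 0.099 and 0.0996. Since these libraries chose the list, its count is not independent evidence. *Mc3r* and *Gabre* had their highest value in 5c-KO replicate 1 (31.5 and 56.5), and without that library *Mc3r* was given no adjusted *p* and the other 2 were not called. The list also had 0 calls with edgeR, with ERCC size factors and in either fit that deals with the choroid plexus markers. The medians without *Kdm5c* were 2.41, 7.22 and 4.56 normalised counts. *Lhb*, a pituitary hormone subunit, was also the 1 call among 5 tested of 10 pituitary markers, of which 4 had a positive log2 change (median 0.53), and all 5 did without the 6 libraries rich in choroid plexus markers (median 1.31). The 10 summed to 1.81 to 10.1 CPM with and 2.78 to 46.1 CPM without *Kdm5c*, highest in 5c-KO replicate 4, and the growth hormone gene *Gh* was at 0 in libraries of both sides. Their part in the *Lhb* call was not tested.

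**Figure D3:**
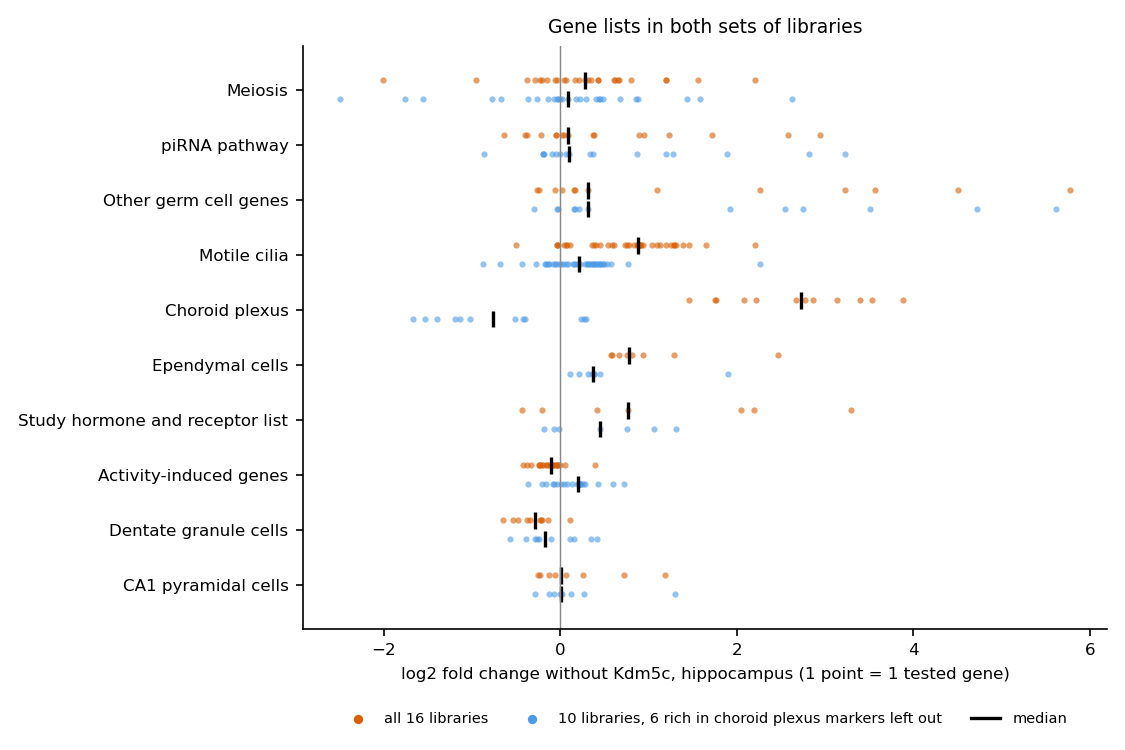
Log2 fold changes without against with Kdm5c for the tested genes of 10 lists, 1 point a gene and the bar the median, in all 16 libraries (upper row of each list) and after leaving out the 6 libraries rich in choroid plexus markers (lower row). The choroid plexus median goes from 2.72 to -0.77, the cilia median from 0.88 to 0.21, the meiosis median from 0.27 to 0.09, and the other germ cell genes are at 0.31 in both. The 6 libraries were chosen by the sum of the choroid plexus markers, so the move of that median is tied to the choice.

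Whether the change depended on *Kmt2a* was asked by an interaction term and by splitting the factor. DESeq2 called 0 of 29841 genes for the interaction (0%), and 571 had an unadjusted *p* under 0.05. edgeR also called 0, with 866 at an unadjusted *p* under 0.05. With both copies of *Kmt2a*, 5c-KO against WT gave 195 genes (1.01% of 19302), 160 higher (0.829%) and 35 lower (0.181%). With 1 copy, DM against 2a-HET gave 117 (0.606%), 102 higher (0.528%) and 15 lower (0.0777%). edgeR gave 70 and 53 genes, of which 3 were lower in each comparison. Leaving out 1 library moved the lower genes of the first comparison between 9 (without 5c-KO replicate 3) and 76 (without 5c-KO replicate 2). Those of the second moved between 2 (without 2a-HET replicate 2) and 23 (without 5c-KO replicate 1). The 2 comparisons share no library. DM against 2a-HET on those 8 libraries alone gave 110 calls, of which *Gm26883* had no value on the other 8. Of the remaining 109, 106 (97.2%) had the same sign in 5c-KO against WT on those other libraries, and 55 were also called there. Their median size was 1.24 in the first and 0.96 in the second. In the other order, of 204 genes called in 5c-KO against WT 195 (95.6%) had the same sign in DM against 2a-HET, with a median size of 1.12 in the first and 0.60 in the second. *Dnah1* changed by 2.23 ± 0.13 with 2 copies and 2.19 ± 0.13 with 1 copy, and *Tex14* by 3.65 ± 0.34 and 3.48 ± 0.33 (SE). The 2 leading genes with the smallest unadjusted interaction *p* were *Ido2*, at 1.89 ± 0.31 and 2.80 ± 0.31, and *Alox8*, at -0.65 ± 0.25 and -1.36 ± 0.26 (SE). Neither passed adjustment.

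**Figure D4:**
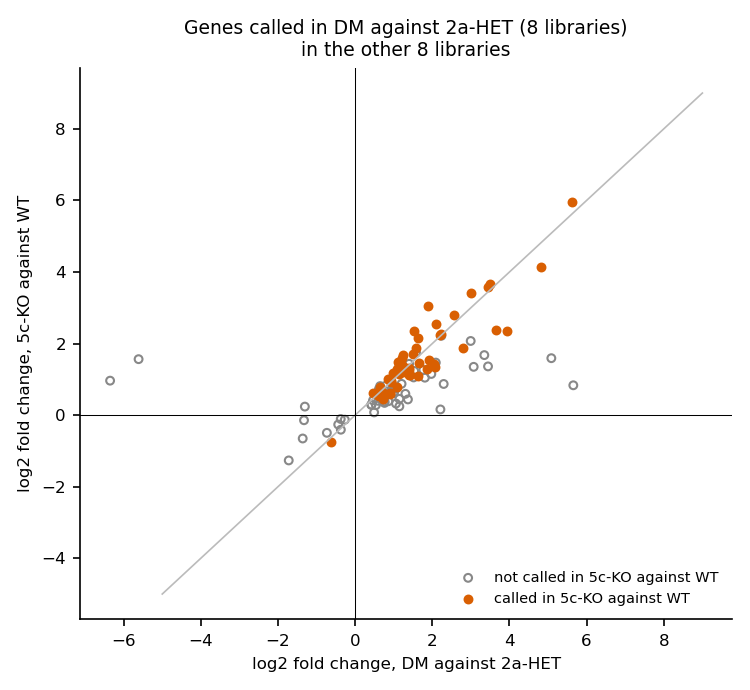
Log2 fold changes of 109 of the 110 genes called in DM against 2a-HET on 8 libraries (x axis) and of the same genes in 5c-KO against WT on the other 8 (y axis), with the line of equality in grey and Gm26883, which has no y value, left out. Filled points are the 55 genes called in both, and 106 of the 109 have the same sign.

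The amygdala of the same mice showed where the hippocampus differed. There the factor gave 342 genes (1.65% of 20732), 284 higher (1.37%) and 58 lower (0.28%). The lower genes numbered 194 without WT replicate 1, 141 without 5c-KO replicate 3, 108 without WT replicate 4 and 33 without WT replicate 3. With edgeR 188 were higher and 14 lower. The regions shared 145 called genes, which is 27.0% of the hippocampal and 42.4% of the amygdala calls, and all 145 had the same direction. The regions come from the same animals, so the lists are not from independent mice. Of the 425 genes higher in the hippocampus 412 were tested in the amygdala, 392 of them were positive and 137 were called. Of the 113 lower ones 97 were negative and 8 were called. The medians over the tested genes were 0.85 and 0.42 for the higher and -0.44 and -0.15 for the lower genes, in hippocampus and amygdala, which the choice by hippocampal values favours. *Tex14* (3.27 ± 0.21), *Rps4l* (1.90 ± 0.15), *Pgam2* (1.88 ± 0.17) and *Scarf2* (1.62 ± 0.16, SE) rose in the amygdala too. Of the 57 germ cell genes 15 were called higher there, and 12 of the 15 called in the hippocampus were called in both regions, while 3 of 40 cilia genes and 0 choroid plexus markers were called there.

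A difference of the factor between regions was called in 16 of 18262 genes (0.0876%), 12 with the larger log2 change in the hippocampus, and in 20 with the mouse as a block, of which 11 were among the 16. edgeR called 4, *Ido2*, *Cacng6*, *Pnck* and *Dnah1* (adjusted *p* = 0.000682 for each), and these 4, *Wdr95* and *Acrbp* were called by DESeq2 whichever of the 16 mice was left out. The other 10 lost the call without at least 1 mouse, and without WT replicate 2 the count was 6. *Ido2* changed by 2.34 in the hippocampus and 0.17 ± 0.20 in the amygdala, a difference of 2.18 ± 0.31 (SE, adjusted *p* = 2.72e-08). *Cacng6* changed by 3.50 and 0.84 ± 0.33 (difference 2.66 ± 0.40, SE, adjusted *p* = 3.32e-07), and *Pnck* by 1.30 and 0.38 ± 0.11 (0.93 ± 0.14, SE, adjusted *p* = 6.31e-07). *Dnah1* rose in both regions, by 2.21 and 1.15 ± 0.14, and differed between them (1.07 ± 0.17, SE, adjusted *p* = 2.35e-06). Its mean counts, scaled within each region, went from 177 to 825 in the hippocampus and from 504 to 1111 in the amygdala. Those of *Pnck* went from 1270 to 3143 and from 2523 to 3301. With *Kdm5c*, *Ido2* had means of 29.1 and 28.4 and *Cacng6* of 40.7 and 24.3, in hippocampus and amygdala. *Wdr95* differed by 2.12 ± 0.42 (SE, adjusted *p* = 0.00191). In the other direction, *Acrbp*, an acrosomal protein gene, was at 0.01 ± 0.20 in the hippocampus and 1.18 ± 0.14 in the amygdala (-1.17 ± 0.25, SE, adjusted *p* = 0.00617). *Btg1* (adjusted *p* = 0.0997), *Gm26773* (0.0483) and *1700003F12Rik* (0.0928) were the other 3, of which *Gm26773* and *1700003F12Rik* were not called with the mouse as a block (0.231 and 0.336). *Mc3r* (0.0483), *Fam69a* (0.0795) and *Spink8* (0.0997), all with the larger change in the hippocampus, likewise lost the call (0.681, 0.35 and 0.377). *Gaa*, at 0.72 and 0.27 ± 0.10, did not pass (adjusted *p* = 0.276) but did with the mouse as a block (0.0185), as did *Ddit4l* (0.715 and 0.000952).

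**Figure D5:**
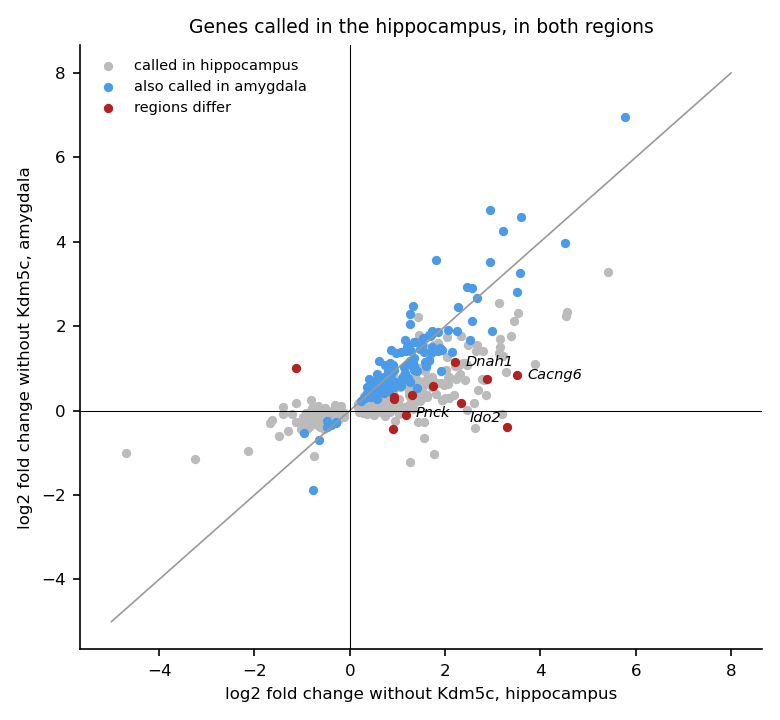
Log2 fold changes without against with Kdm5c of the genes called in the hippocampus, in the hippocampus (x axis) and the amygdala (y axis), with the line of equality in grey. Blue points are genes also called in the amygdala, and red points are the 12 called genes whose change differed between regions, with Ido2, Cacng6, Pnck and Dnah1 named.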

How the data were processed

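The tables of expected counts per gene and per transcript were deposited by the authors. Per the submitters' processing notes and the methods, reads were mapped to mm10 with STAR 2.5.3a, unique reads were kept, duplicates were removed and counting used featureCounts (Subread 1.5.0), although part of the deposited values are not whole numbers, so that the estimator and annotation release are not given in the sources used here. Libraries were stranded and oligo-dT primed with ERCC spike-ins, which were left out of every test. Symbols and coordinates came from GENCODE M21 (mm10), which named 53620 of 53715 genes, and promoters from RefSeq (GRCm38.p6).

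Expected counts were rounded. DESeq2 1.42.0 (R 4.3.3) tested Kdm5c state by the Wald test with Kmt2a state as covariate, default size factors and filters, and unshrunken changes. The threshold was 0.1 for p after Benjamini-Hochberg adjustment. The interaction and both simple effects used all 16 libraries, and the region difference all 32. For the regions, which share mice by the labels, deviations within a mouse correlated at a median of 0.168 (13 of 16 mice over 0.1), so the mouse block is given where it changed a call. Alternatives were edgeR 4.0.16, limma 3.58.1 (voom), TMM or ERCC size factors, a filter of 10 counts in 4 libraries, an adjusted p under 0.05, no Kmt2a term, the interaction in the fit, a replicate block, a term for replicate 1, each library out, the libraries numbered 1 out, and, added after the data were seen, 5c-KO replicate 1 out for the lists, choroid plexus alternatives and fits of 8 libraries. The model fits were tested on simulated data.

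Members, lists and the naming rule were chosen with earlier results of these data known. Named genes were *Kdm5c* and *Kmt2a*, the 15 smallest adjusted p in each direction (leaving out Gm, RIKEN and clone names, which were 66 of the 425 higher and 9 of the 113 lower genes), called list members, up to 5 genes per direction of the region difference, and called genes near *Kdm5c*. Some genes that the rule selects are counted but not reported here. Transcript counts share reads between transcripts and were described without a test.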

Additional observations from a re-analysis of the deposited data

Results flagged for a closer look

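In groups of 8 libraries, the highest or lowest library was called far from the others where its gap to the nearest, as a share of the range, passed Dixon's critical value. This was so in 34 of 156 groups (21.8%). By that rule chance gives about 1 in 20 for unrelated groups, which these genes, chosen from called lists, are not. In 16 of these 34 it was 5c-KO replicate 1, which held the highest count among the 8 without *Kdm5c* for the choroid plexus genes *Folr1* (1213), *Clic6* (3371), *Kcnj13* (891), *Slc4a5* (1258), *Aqp1* (1057) and *Trpv4* (755), for the cilia genes *Dnaic1* (199), *Dnali1* (170), *Rsph4a* (243), *Tekt1* (155), *Cfap43* (183), *Cfap52* (170) and *Ak7* (244), and for *Mc3r* (31.5), *Gabre* (56.5) and *Mia* (254). With *Kdm5c*, WT replicate 3 was the highest for *Folr1* (244), *Clic6* (490), *Kcnj13* (86.5), *Slc4a5* (209), *Aqp1* (125), *Mfrp* (240), *Trpv4* (133) and *Mc3r* (3.24), and 2a-HET replicate 3 for *Dnah11* (68.0), *Rsph4a* (106), *Cfap44* (191), *Ak7* (105), *Gabre* (10.3) and *D1Pas1* (0.932). Single libraries also stood apart for *Wdr95* (46.5 in 5c-KO replicate 3), *Trabd2b* (63.4 in 5c-KO replicate 4), *D1Pas1* (26.1 in DM replicate 4) and *Spink8* (272 in 2a-HET replicate 1). All of these are normalised counts.

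The 16 genes whose log2 change differed between regions, given as hippocampus minus amygdala, were *Ido2* (2.18), *Cacng6* (2.66), *Pnck* (0.93), *Dnah1* (1.07), *Wdr95* (2.12), *6330403K07Rik* (0.65), *Slco2a1* (1.35), *Mc3r* (3.66), *Ddo* (0.61), *Fam69a* (0.28), *Tnxb* (1.17), *Spink8* (1.31), *Acrbp* (-1.17), *Gm26773* (-2.14), *1700003F12Rik* (-1.26) and *Btg1* (-0.47).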

How the results depend on the processing

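The 538 calls of the hippocampal factor became 278 with edgeR, 225 with limma voom, 253 with the replicate block in edgeR, 22 with ERCC size factors, 125 without the libraries rich in choroid plexus markers and 260 with their level as a covariate. With ERCC size factors the median of all genes moved from -0.01 to -0.14, and all 22 calls were higher. The other 8 settings gave 369 to 613, and leaving out 1 library 379 to 783. The interaction had 63 calls with the replicate block and 0 to 2 with 1 library left out (2 without 2a-HET replicate 1). 5c-KO against WT gave 70 calls with edgeR, 478 with the block and 109 to 290 with 1 library left out, against 195 (109 without WT replicate 2, 118 without 5c-KO replicate 3, 121 without WT replicate 4, 125 without 5c-KO replicate 1), and DM against 2a-HET 53, 465 and 79 to 148, against 117. By the rule of every pair over 0.1, replicate numbers do not pair hippocampal mice (same-number deviations correlated at a median of 0.0258, 9 of 24 pairs over 0.1), although those numbered 1 had a median of 0.346 (4 of 6 pairs), and the block brought the factor to 565. The amygdala factor gave 202 with edgeR and 268 to 611 with 1 library left out (611 without WT replicate 1), against 342, and the region difference 4 with edgeR and 6 to 18 (6 without WT replicate 2, 8 without 2a-HET or 5c-KO replicate 4, 9 without 2a-HET or 5c-KO replicate 2), against 16. The cause of these changes was not tested. Among named genes, no sign turned in any alternative other than those on the choroid plexus. Without the libraries rich in choroid plexus markers *Aqp1* (-1.02), *Clic6* (-0.40), *Folr1* (-1.13), *Kcnj13* (-1.19), *Mfrp* (-1.40), *Slc4a5* (-1.68) and *Trpv4* (-0.51) did, and with the covariate *Aqp1* (-0.12), *Folr1* (-0.29), *Mfrp* (-0.18) and *Slc4a5* (-0.27). All of these are choroid plexus markers whose sum built the fits, so their turns are tied to that choice. Of 77 called named genes, calls were lost by 64 with ERCC size factors, 42 of 74 without the libraries rich in choroid plexus markers, 31 with their level as a covariate, 30 of 72 with limma voom, 28 with the replicate block in edgeR, 23 with edgeR and 23 with at least 1 of the 16 libraries left out, and 25 kept the call under every alternative other than ERCC size factors. In 150 bases nearest the start, CACGTG was in 5.78% of promoters of the genes that rose, against 9.16% in 300 bases, and GCGGGAA or TTCCCGC in 2.17% against 4.82%. Genes at a few counts are limited by depth.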
